A study of Homo sapiens with 12 samples.

Results

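The 4 globin genes HBA2, HBB, HBG1 and HBG2 were followed through RNA libraries of Huh7, a human hepatoma cell line. They were chosen by symbol, as every row of either deposited table whose gene name was one of the 4, out of 1939 distinct gene names over both tables. HBA2, HBG1 and HBG2 had a row in both tables, and HBB had a row in the G398S table and was not analysed here in the WT clone. The genes were proposed because of their values in these same comparisons, so their levels and changes are given as a description and the authors' p and q values are quoted without being used as support.

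Each cell clone held a construct from which doxycycline induces A1CF, a protein that binds RNA and takes part in editing of the apolipoprotein B message. The 4 groups were G398S A1CF with doxycycline, G398S A1CF without it, WT A1CF with doxycycline and WT A1CF without it, each of 3 libraries, for 12 in all. Every group carried a construct and no group had doxycycline without one, so the drug and the induction of A1CF cannot be told apart. Each construct was represented by 1 clone, so construct and clone cannot be told apart either. The promoter that drives the construct is not given in the sources used here. Libraries were made from total RNA with a stranded Illumina TruSeq kit that removes ribosomal and globin RNA, which bears directly on the genes described. Values are FPKM, fragments scaled by transcript length and library size, with 1 value pooled by the authors for each group. No value per library was analysed, so the spread among the 3 libraries of a group, and whether 1 library carried a signal, could not be seen.

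Haemoglobin is a tetramer of a pair of alpha-like and a pair of beta-like globin chains, each holding a heme group, and is the main protein of red cells. HBA2 encodes an alpha chain and lies in the alpha cluster on chromosome 16. HBG1 and HBG2 encode the gamma chains of fetal haemoglobin, and HBB the beta chain of adult haemoglobin, all within the beta cluster on chromosome 11. In human development the liver is a main site of red cell formation for part of the time before birth. The switch from gamma to beta chains follows around birth. In hepatocytes themselves globins are not among the abundant messages.

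On hg19 the row for HBG1 ran from 5269502 to 5271096 of chromosome 11 in the G398S table and from 5269502 to 5271087 in the WT table, and that for HBG2 from 5274421 to 5276011 in both. HBA2 covered 222846 to 223737 of chromosome 16 in the G398S table and 222846 to 223709 in the WT table. The HBB row ran from 5246696 to 5255858, a span of 9163 bases, against 1595 bases for HBG1 and 1591 bases for HBG2 in the same table. In the RefSeq order of the cluster the neighbour of HBB on the HBG1 side is HBD, the delta-globin gene, which had no row of its own among the values analysed. Reads of HBB and of a neighbour within that span cannot be told apart in this row. HBG1 and HBG2 are near-identical copies, and HBA2 has a near-identical copy in HBA1, not analysed here, so the authors' counting could have divided reads between copies.

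In the clone with G398S A1CF all 4 globins were higher with doxycycline, by 16.6-fold to 42.6-fold. HBB, the adult beta chain, and HBA2, an alpha chain common to fetal and adult haemoglobin, were the largest with and without the drug, and the gamma genes stood far below. HBB had 2896 FPKM with doxycycline and 90.7 FPKM without it. HBA2 had 1453 FPKM with doxycycline and 87.3 FPKM without it. HBG1 had 98.7 FPKM with doxycycline and 2.91 FPKM without it, and HBG2 had 87.3 FPKM with it and 2.05 FPKM without it. In bulk RNA a change in the number of globin-expressing cells and a change in globin RNA per cell cannot be told apart. The order of the levels was HBB, HBA2, HBG1 and HBG2 in both groups, with no replicate spread against which to set the neighbours in that order.

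The authors' deposited table for the G398S clone gives log2 fold changes of 5.41 for HBG2, 5.09 for HBG1 and 4.06 for HBA2, and HBB was 31.9-fold higher. Its Cuffdiff q was 0.00104 for each of the globins. Their p of 5e-05 was the smallest deposited value, shared by 735 of 1863 genes. By absolute log2 fold change HBG2 ranked 2, HBG1 ranked 3, HBB ranked 6 and HBA2 ranked 9 among the 1863 genes. The globins thus made up 4 of the 9 genes whose log2 fold change reached 4 in either direction. The other 5 were GSTA1, ELOVL3, TGM3, MAB21L3 and CASP1, chosen after their values were seen, and none of them exceeded 25.4 FPKM with doxycycline. Of the 17072 genes tested in that comparison, 10.9% were called at a q of 0.05 and analysed here, 5.06% higher and 5.86% lower (12.4% called by the ranks of the deposited q values). At a q of 0.01 it was 6.57%. Since the members were chosen on this contrast, nothing is read from their count of 4.

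The levels placed HBB among the most abundant of the genes listed as changed. With doxycycline it ranked 3 of 1863, behind NTS, which encodes the peptide neurotensin, at 3790 FPKM, and the ribosomal protein gene RPS12 at 2996 FPKM. Without doxycycline HBB ranked 141, where RPS12 was at 3939 FPKM. HBA2 ranked 8 with doxycycline and 150 without it. HBG1 ranked 136 with doxycycline and 1380 without it, and HBG2 ranked 150 with it and 1482 without it. The authors' test statistics for HBA2 and HBB, 16.9 for each, were the 2 largest in absolute value among the genes listed there.

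In the clone with WT A1CF the gamma genes went the opposite way and from a level far above anything else in the table. HBG1 had 186 FPKM with doxycycline and 23802 FPKM without it, and was 128-fold lower with the drug. HBG2 had 141 FPKM with doxycycline and 13402 FPKM without it, and was 95.1-fold lower. HBA2 moved against them, with 9.67 FPKM with doxycycline and 1.15 FPKM without it, an 8.44-fold difference upward at low levels. Doxycycline thus went with less HBG1 and HBG2 and more HBA2 in 1 clone, and with more of all 4 genes in the other.

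The authors' deposited table for the WT clone gives log2 fold changes of -7.00 for HBG1, -6.57 for HBG2 and 3.08 for HBA2, each with a Cuffdiff q of 0.00699 and the smallest deposited p, 5e-05. HBG1 and HBG2 ranked 1 and 2 by absolute log2 fold change among the 141 genes with a value above 0 in both groups, and HBA2 ranked 6. Of 15109 genes tested, 0.940% were called at a q of 0.05 and analysed here, 0.371% higher and 0.569% lower (1.14% called by the ranks of the deposited q values). At a q of 0.01 it was 0.602%. The 3 members with a row, 1 higher and 2 lower, were chosen on this contrast, so their count is not read against that share.

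The statistic behind the HBA2 rise in the WT clone was small. It was 1.43 in the authors' deposited table, against -10.1 for HBG1 and -12.4 for HBG2. Read as a standard normal value it would have a two-sided p of 0.152, whereas the deposited p was the smallest one given. HBA2 was the single gene, among the 91 WT genes at that smallest p, whose statistic was under 1.96 in absolute value. Dividing the log2 fold change by the statistic gives an implied standard error of 2.15 on the log2 scale for HBA2 in the WT clone, against 0.69 for HBG1 and 0.53 for HBG2. In the G398S clone the same quantity was 0.24 for HBA2, 0.30 for HBB, 0.39 for HBG1 and 0.49 for HBG2. Adding 1 FPKM to both groups lowered the log2 fold change of HBA2 in the WT clone to 2.31.

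**Figure D1:**
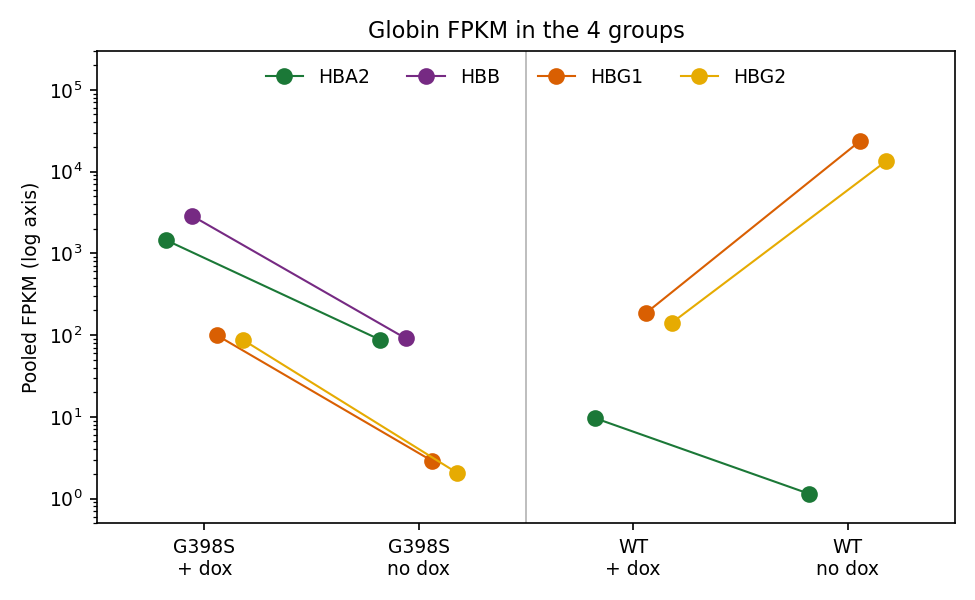
Pooled FPKM on a log axis for HBA2, HBB, HBG1 and HBG2 in the G398S groups (left) and WT groups (right), each with doxycycline before without, where each point is 1 pooled value of 3 libraries and lines join the same gene within a clone. All 4 genes are higher with doxycycline in the G398S clone, whereas HBG1 and HBG2 drop to 186 and 141 FPKM with doxycycline in the WT clone, against 23802 and 13402 FPKM without it. No HBB value of the WT clone was analysed.

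**Figure D2:**
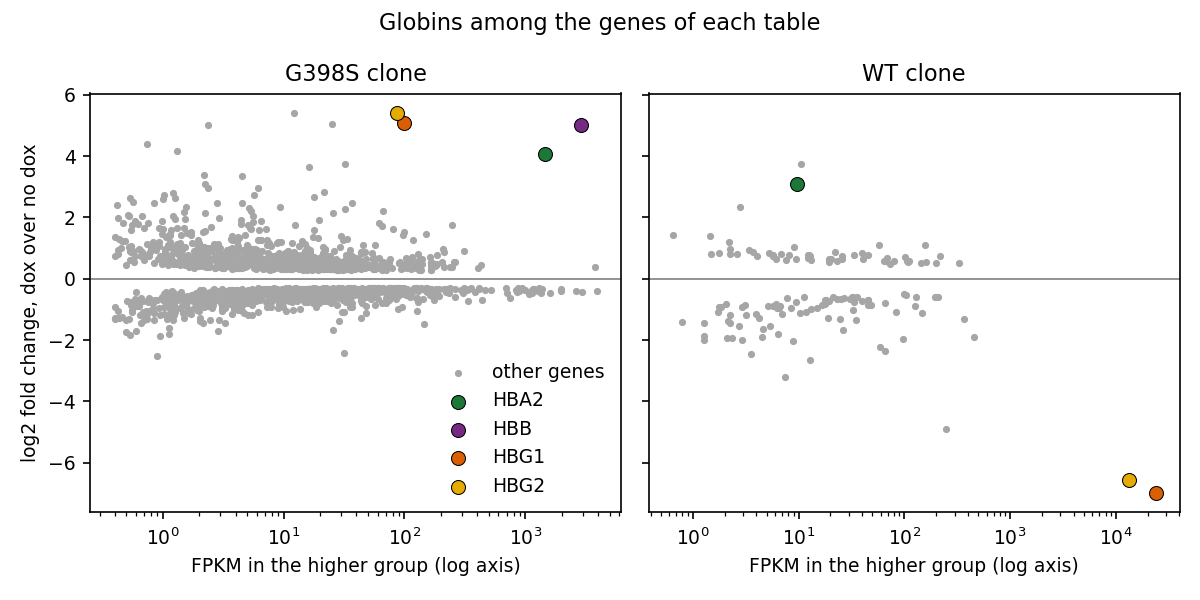
Log2 fold change with doxycycline over without, against FPKM in the higher group on a log axis, for genes in the G398S table (left) and the WT table (right) with values above 0 in both groups. Globins are large coloured points, other genes small grey points. HBB and HBA2 lie at the upper right in the G398S clone, and HBG1 and HBG2 stand alone at the lower right in the WT clone.

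Without doxycycline the WT clone had a gamma-globin level with no counterpart among the other rows of its table. The summed HBG1 and HBG2 value was 37204 FPKM, 82.3 times that of the next gene, RNU11, a small nuclear RNA of the minor spliceosome, at 452 FPKM. With doxycycline the sum was 327 FPKM in the WT clone, 0.997 times the highest other gene, CYP51A1, a sterol synthesis enzyme, at 328 FPKM. HBG1 then ranked 4 and HBG2 ranked 9 of 142 genes, against ranks 1 and 2 without doxycycline. HBA2 ranked 72 with doxycycline and 134 without it. A table of called genes leaves out abundant genes that were not called, so these ranks hold among the listed genes only.

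Levels of each gene were also set side by side between clones, as a description, because each table was normalised on its own and the clones differ in more than the construct. Without doxycycline HBG1 was at 2.91 FPKM in the G398S clone and 23802 FPKM in the WT clone, 8185 times as high in WT. HBG2 was at 2.05 FPKM in the G398S clone and 13402 FPKM in the WT clone, 6532 times as high in WT. With doxycycline the 2 clones were far closer for the gamma genes. HBG1 was then at 98.7 FPKM in G398S and 186 FPKM in WT, and HBG2 at 87.3 FPKM in G398S and 141 FPKM in WT, which is 1.89 and 1.61 times as high in WT. HBA2 was ordered the other way, with 1453 FPKM in G398S against 9.67 FPKM in WT with doxycycline, 150.3 times as high in G398S. Without the drug it had 87.3 FPKM in G398S against 1.15 FPKM in WT, 76.3 times as high in G398S.

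Over the 4 groups HBG1 was lowest in uninduced G398S cells, followed by induced G398S cells, induced WT cells and uninduced WT cells, and HBG2 had that same order. HBA2 was lowest in uninduced WT cells, followed by induced WT cells, uninduced G398S cells and induced G398S cells. The highest group exceeded the lowest by 8185-fold for HBG1, 6532-fold for HBG2 and 1269-fold for HBA2. HBB differed by 31.9-fold between its 2 groups.

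The ratios among globins within a group do not depend on how a table was scaled. They compare what was left after the kit's removal of globin RNA, as do the shares below. Whether that removal was equal for each globin and each group was not tested. By these ratios HBA2 exceeded the gamma genes in the G398S clone and the gamma genes exceeded HBA2 in the WT clone, with and without the drug. The gamma genes together were at 0.128 times the HBA2 level in induced G398S cells and 0.0568 times in uninduced G398S cells. In WT cells the gamma sum was 33.8 times the HBA2 level with doxycycline and 32492 times without it. Within the G398S clone this ratio of the gamma sum to HBA2 was 2.25 times as high with doxycycline as without. Within the WT clone the ratio was 961 times as high without doxycycline as with it. HBA2 was at 1.15 FPKM in uninduced WT cells, so the size of the WT ratio without the drug rests on a low denominator. With 1 FPKM added, the log2 ratio of HBG1 to HBA2 there was 13.44, against 14.34 as deposited.

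Written as shares of the summed FPKM of the globins with a value, gamma genes made up 4.10% with doxycycline and 2.71% without it in the G398S clone. They made up 97.1% with doxycycline and 99.997% without it in the WT clone, where the sum holds no HBB. In the G398S clone HBB had 63.9% of the sum with doxycycline and 49.6% without it, and HBA2 had 32.0% with it and 47.7% without it. Of the beta-like chains alone, HBB, HBG1 and HBG2, the gamma share was 6.04% with doxycycline and 5.18% without it. The globin sum in the G398S clone was 4535 FPKM with doxycycline and 183 FPKM without it, 24.8-fold higher with the drug. That of the WT clone, over 3 genes, was 337 FPKM with doxycycline and 37206 FPKM without it, 110.5-fold lower with the drug.

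HBB and HBA2, a beta and an alpha chain, stood near parity in uninduced G398S cells and apart in induced ones. The ratio of HBB to HBA2 was 1.99 with doxycycline and 1.04 without it. HBB was 29.3 times HBG1 with doxycycline and 31.2 times without it, so their ratio differed by 1.06-fold between the groups while HBB and HBG1 were 31.9-fold and 33.9-fold higher with the drug. HBB was 33.2 times HBG2 with doxycycline and 44.2 times without it. If part of the HBB row came from HBD, the HBB values above are upper values for HBB alone.

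HBG1 exceeded HBG2 in every group, and the ratio of the gamma copies varied little beside the levels. It was 1.13 with doxycycline and 1.42 without it in G398S cells, and 1.32 with doxycycline and 1.78 without it in WT cells. In each clone the ratio was lower with doxycycline, 0.798 times the uninduced ratio in G398S and 0.743 times in WT. HBG1 itself spanned 8185-fold over the same groups. Because reads of near-identical copies can be assigned to either, the ratio of the copies is a property of the deposited values and may not be that of the transcripts. Adding HBG1 and HBG2 into 1 value gave log2 fold changes of 5.23 in the G398S clone and -6.83 in the WT clone. Both copies had the same sign within each clone, which fixes the sign of the sum.

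**Figure D3:**
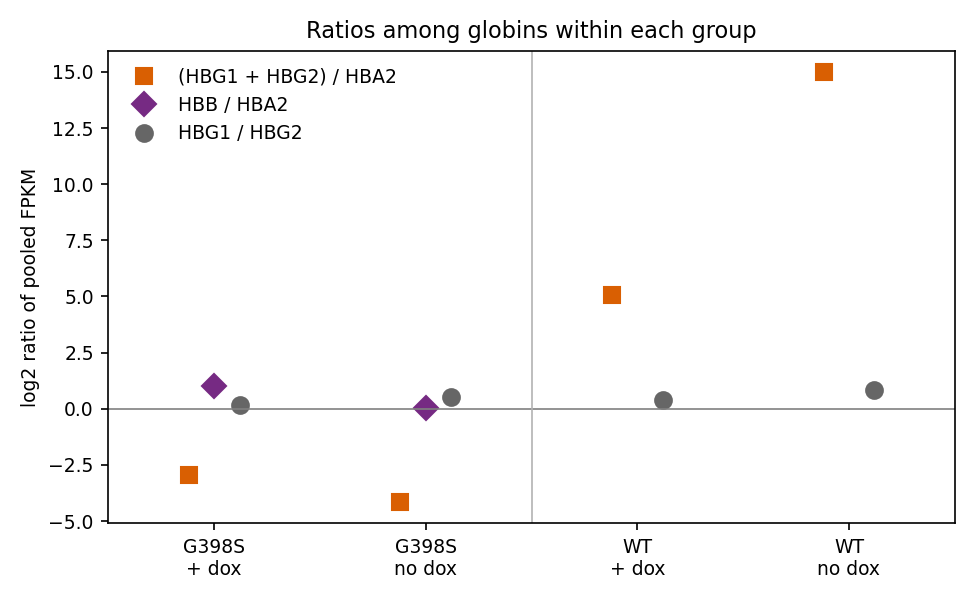
Log2 ratios of pooled FPKM within each group for the gamma sum over HBA2 (squares), HBB over HBA2 (diamonds, G398S groups only) and HBG1 over HBG2 (circles), with G398S groups left of WT groups and doxycycline before none within each clone. The gamma to HBA2 ratio lies below 0 in both G398S groups and above 0 in both WT groups, at 14.99 in uninduced WT cells, while HBG1 over HBG2 stays between 0.18 and 0.83.

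Genes of the red cell programme and of heme synthesis were looked up from lists chosen with earlier results of these data in view. Of 15 erythroid transcription factors and switching regulators, 1 had a row in the G398S table and 0 in the WT table. That gene was TAL1, a basic helix-loop-helix factor of blood formation, at 0.373 FPKM with doxycycline and 0.593 FPKM without it (log2 fold change -0.67, q = 0.0311 in the authors' deposited table, Cuffdiff). Of 12 heme synthesis genes CPOX, coproporphyrinogen oxidase, had a row in the G398S table, 1.25-fold higher at 17.9 FPKM with doxycycline and 14.2 FPKM without it (q = 0.0326, Cuffdiff, in that table). No heme synthesis gene had a row in the WT table. Only 0.940% of all tested genes were called in the WT comparison, so nothing is read from counts of 0 there. The G398S rows are 1 gene each, 6.67% and 8.33% of their lists, beside 10.9% of all tested genes called in the G398S comparison. The list shares count every list gene, whether or not it was tested.

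Of 30 red cell markers, BPGM alone had a G398S row (3.33% of the list, against 10.9% of all tested genes) and 0 had one in the WT table. BPGM, which makes the 2,3-bisphosphoglycerate that lowers the oxygen affinity of haemoglobin, was 1.34-fold higher at 25.7 FPKM with doxycycline and 19.2 FPKM without it. The summed level of the list in each G398S group held BPGM alone, since the other 29 markers were not analysed there. No marker of the list had a row with a value of 0. The defining markers AHSP, which stabilises free alpha chains, ALAS2, the erythroid enzyme that starts heme synthesis, and SLC4A1 were not analysed here, and their levels are not known from these values. The embryonic and other globins HBA1, HBD, HBE1, HBM, HBQ1 and HBZ had no row either. The part of red cell RNA in the globin values was not tested.

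Leukocyte and platelet markers with a row were 2 higher and 1 lower with doxycycline in the G398S clone, and 2 lower in the WT clone. In the G398S clone 3 of 22 had a row (13.6% of the list, against 10.9% of all tested genes), and their summed level was 67.1 FPKM with doxycycline and 25.4 FPKM without it. S100A9, a calcium-binding protein of myeloid cells also made by stressed epithelia, was 3.54-fold higher at 61.2 FPKM with doxycycline and 17.3 FPKM without it, and made up most of that sum. CSF3R, the granulocyte growth factor receptor, was at 1.97 FPKM with doxycycline and 0.820 FPKM without it, and LYZ, lysozyme, was 1.88-fold lower, at 3.87 FPKM with it and 7.29 FPKM without it. In the WT clone 2 of 22 had a row (9.09%, against 0.940% of all tested genes), with a summed level of 39.4 FPKM with doxycycline and 85.8 FPKM without it. These were LYZ at 39.4 FPKM with doxycycline and 83.9 FPKM without it, and GP9, a subunit of a platelet adhesion receptor, listed at 0 with doxycycline and at 1.95 FPKM without it. The defining leukocyte gene PTPRC and the platelet gene PF4 were not analysed here, and the part of blood cells in the globin values was not tested.

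The labelled cell type was set against 20 hepatocyte and hepatoma markers. Of these, 3 had a row in the G398S table (15.0% of the list, against 10.9% of all tested genes). They were APOA1, APOA2 and TF, all secreted by hepatocytes. All 3 were lower with doxycycline, where 5.86% of all tested genes were called lower. APOA2 was at 270.2 FPKM with doxycycline and 441 FPKM without it, APOA1 at 130.2 FPKM with it and 185 FPKM without it, and TF, transferrin, at 178 FPKM with it and 227 FPKM without it. In induced G398S cells HBB and HBA2 therefore stood above all 3 of these liver messages. ALB, AFP and the other 15 were not analysed here. Nor was any marker of this list in the WT clone, where 0.940% of all tested genes were called. The induced gene, A1CF, was at 80.9 FPKM with doxycycline and 26.3 FPKM without it in G398S, and at 33.2 FPKM with it and 19.5 FPKM without it in WT.

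Genes that bind haemoglobin, break down heme or handle iron had more rows than the erythroid factor, heme synthesis and red cell lists. Of 27, 10 had a row in the G398S table (37.0%, against 10.9% of all tested genes), 7 higher and 3 lower with doxycycline. Their median log2 fold change was 0.37, against -0.32 over all 1863 genes of the table. This list too was chosen with earlier results of these data known, so its share and median are a description only. HP, haptoglobin, which captures free haemoglobin in plasma and is also an acute-phase protein, was at 25.6 FPKM with doxycycline and 5.76 FPKM without it, 4.44-fold higher. HPR, its close paralog, was at 4.16 FPKM with doxycycline and 1.98 FPKM without it, and reads may be shared between these copies. HMOX1, the inducible heme oxygenase, which opens the heme ring and is induced by many stresses, was 2.39-fold higher at 30.8 FPKM with doxycycline and 12.9 FPKM without it.

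The smaller rises in that list were NCOA4, the receptor that sends ferritin for breakdown, at 1.45-fold, SLC40A1, the iron exporter ferroportin, at 1.32-fold, IREB2, an iron-sensing RNA-binding protein, at 1.27-fold, and BLVRA, a biliverdin reductase, at 1.27-fold. BLVRB, a second biliverdin reductase, was 1.39-fold lower, STEAP3, an endosomal iron reductase, 1.41-fold lower and TF 1.28-fold lower with doxycycline. At a q of 0.01, which 6.57% of all tested genes passed, 6 of the 10 were left in the authors' deposited table, namely HP, HPR, HMOX1, NCOA4, SLC40A1 and BLVRB. In the WT clone 1 of 27 had a row (3.70%, against 0.940%), IREB2, at 19.2 FPKM with doxycycline and 13.3 FPKM without it, and its q of 0.0335 was past the threshold of 0.05 but not of 0.01. The genes of this list with a row are all expressed by liver cells, and the share of all tested genes covers genes of any expression level.

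**Figure D4:**
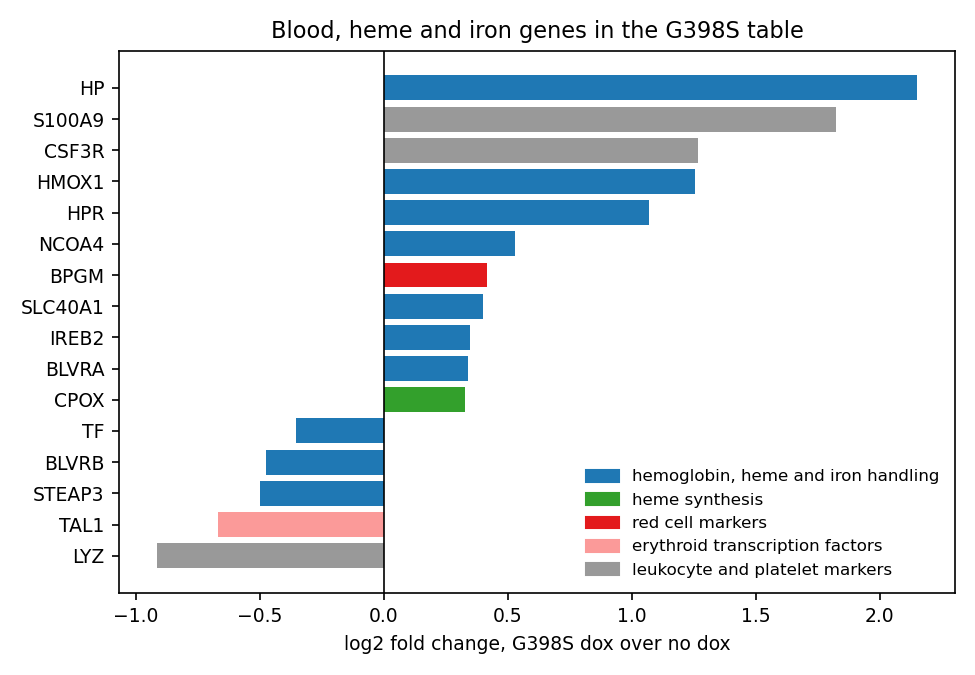
Log2 fold changes with doxycycline over without in the G398S clone for the 16 genes with a row from the erythroid factor, heme synthesis, red cell, leukocyte and platelet, and haemoglobin, heme and iron lists, coloured by list and without the globins and hepatocyte markers, each from 1 pooled value per group. HP lies at 2.15 and HMOX1 at 1.25. BPGM of the red cell list, CPOX of the heme synthesis list and TAL1 of the erythroid factor list lie between -0.67 and 0.42.

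Among the other 61 single-symbol genes with a row in both tables and at least 1 FPKM in their highest group, those most like HBG1 over the 4 groups were CCL20, MIR6087, CXCL5, GXYLT2 and ACSL1. Likeness was Pearson's r of log2(FPKM + 1) over 4 pooled values, 2 from each clone, and is a description only. It was 0.995 for CCL20, a chemokine, at 139 FPKM in induced and 88.8 FPKM in uninduced G398S cells, and 148 FPKM in induced and 367 FPKM in uninduced WT cells. The small RNA symbol MIR6087 had r = 0.991 and was at 6.11 FPKM in induced and 0.782 FPKM in uninduced G398S cells, and at 8.31 FPKM in induced and 247 FPKM in uninduced WT cells. CXCL5, another chemokine, had r = 0.966, GXYLT2, a xylosyltransferase of glucosylated proteins, r = 0.946 and ACSL1, an acyl-CoA synthetase, r = 0.935. HBG2 itself had r = 0.999 with HBG1, whereas HBA2 had r = -0.64. A correlation ignores the size of a difference, and CCL20 ran from 88.8 to 367 FPKM where HBG1 varied by 8185-fold.

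The genes most like HBA2 by the same measure were UAP1L1, HMGCS1, RRAGC, PXK and A1CF. Their r ran from 0.969 for UAP1L1 to 0.881 for A1CF. HMGCS1, the synthase that feeds the mevalonate pathway, had r = 0.968 and was at 212 FPKM in induced and 163 FPKM in uninduced G398S cells, and at 144 FPKM in induced and 101 FPKM in uninduced WT cells. RRAGC, a GTPase of amino acid sensing, had r = 0.965. With 4 points, 2 of them from each clone, a gene higher in the G398S clone and higher with doxycycline in both can give a high r with HBA2. How high depends on the relative sizes of these differences.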

How the data were processed

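RNA of Huh7 clones was sequenced in 12 libraries, 3 for each of 4 groups assigned from the source labels. Per the submitters' processing notes the tools were Cuffdiff (version not given), Cufflinks 2.2.1, STAR 2.5.0b and bcl2fastq 2.9.1, on hg19. Their settings and any use of strand in counting were not given in the sources used here. No label states that replicate libraries derive from separate cultures, and the deposited p-values then reflect only the spread between libraries, which may be technical. The authors deposited 1 table per clone, each holding genes marked significant. The deposited FPKM are 1 value per group, pooled by the authors, so no depth, left-out library or replicate error of a level could be had. Deposited log2 fold changes equal the log2 ratio of these FPKM. The deposited test statistic is a score of the authors' comparison, and the deposited p-values, in steps of 5e-05, come with q-values. One table has a mutant prefix in its group names, and the other was taken as WT from the name it was deposited under.

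Starts were taken as counted from 0, and 1 was added. The number of genes tested was recovered as the smallest number that makes every rank p × tested / q whole (17072 for G398S, 15109 for WT; the next to do so were 34144 and 30218), a step tested on simulated data. The ranks imply 2114 and 172 genes past q 0.05, of which 1863 and 142 were analysed here. Nothing can be said of the change of a gene without a row, which was not analysed here.

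Levels, folds and ratios were computed with Python 3.11.15, pandas 2.3.3, NumPy 2.4.6 and SciPy 1.17.1, and figures drawn with matplotlib 3.10.9. No test was run. The 4 genes and the 7 gene lists (135 distinct genes) were chosen with earlier results of these data known. The genes named were the 4 globins, the list genes with a row, and the 5 genes with the highest correlation with HBG1 and with HBA2; others are said to be chosen after their values were seen, or are given as the highest level in a group. Alternatives were 1 or 0.1 FPKM added to both values, HBG1 and HBG2 summed, a q of 0.01 and at least 1 FPKM in the higher group. Gene order in the globin clusters is from RefSeq on GRCh38.p14, used for names and neighbours only.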

Additional observations from a re-analysis of the deposited data

How the results depend on the processing

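No paired analysis was possible because the deposited values are pooled over the libraries of a group, and for that reason leaving out each replicate in turn was not run. Adding 1 FPKM or 0.1 FPKM to both groups cannot change the sign of a log2 fold change. The same holds for summing HBG1 and HBG2, which had the same sign within each clone. Only the sizes of the 7 globin log2 fold changes were therefore open to a shift. With 1 FPKM added, the log2 fold changes of HBG1 and HBG2 in the G398S clone moved by more than their implied standard error. They became 4.67 and 4.86, as the uninduced values were low. A q of 0.01 left 1122 genes called in the G398S comparison and 91 in the WT comparison. It left 6 genes of the haemoglobin, heme and iron list, 0 erythroid factors and 0 heme synthesis genes in G398S, and 0 haemoglobin, heme and iron genes in WT. Requiring 1 FPKM or more in the higher group left 0 of 15 erythroid factors in G398S. For the ratios of HBG1 or HBG2 to HBA2 in uninduced WT cells, 1 FPKM added lowered the log2 ratio from 14.34 to 13.44 and from 13.51 to 12.61, since HBA2 was at 1.15 FPKM. With the gamma genes summed in place of HBG1 or HBG2, the log2 ratio to HBA2 was -2.97 in induced and -4.14 in uninduced G398S cells, and 5.08 in induced and 14.99 in uninduced WT cells. That of HBB to the gamma sum was 3.96 in induced and 4.19 in uninduced G398S cells. These differ from the ratios of single copies because the sum counts both copies. Depth is unknown, so no counting interval could be given for any level.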

Other observations

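HBG1 and HBG2 were among 15 single-symbol genes that were higher with doxycycline in the G398S clone and lower in the WT clone, out of 64 with a row in both tables. A further 4 went the other way round and 45 had the same sign in both. The clones share no control libraries, and the difference between clones was not tested. After the gamma genes, MIR6087 had the widest pair of log2 fold changes in the authors' deposited tables, 2.97 in G398S and -4.89 in WT. MIR6087 and the genes that follow were chosen after their values were seen. SLPI, a secreted protease inhibitor, had 3.74 in G398S and -0.60 in WT, and VNN3 had 1.42 in G398S and -2.64 in WT. The chemokines CCL20, CXCL1 and CXCL5 and the NF-kappaB inhibitor TNFAIP3 were in the same group of 15.

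In the WT table, MIR6087, HBG1 and HBG2 were the 3 genes whose log2 fold change reached 4 in either direction, and all 3 were lower with doxycycline. In the G398S clone 735 genes sat at the smallest p, and 1 of them had a test statistic under 1.96 in absolute value, the same number as in the WT table, where that gene was HBA2.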
